A study of Homo sapiens with 9 samples.

Results

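The 37 genes described here encode kinases, kinesins, spindle and kinetochore proteins, anaphase regulators and 2 transcription factors of mitosis. They were taken by name from a list of mitotic genes, with no measured value in the rule, and all 37 were found among the 60230 genes of the deposited tables. They were read in poly(A) RNA of the human lung cancer cell line NCI-H358, an established line, in 3 states of 3 libraries each. On-drug cells were the resistant derivative NCI-H358-R, selected in 250 nM sotorasib for about 2 months and profiled on day 4 after dosing with 250 nM of this targeted cancer drug. Off-drug cells were the same resistant derivative without sotorasib, and the sources used here do not say for how long. Parental cells were sensitive to sotorasib and untreated. A single resistant derivative was profiled, so what goes with resistance and what goes with that derivative cannot be told apart. The labels do not tie the libraries of a state to separate cultures. The p-values therefore rest on the spread among the 3 libraries of each state, part of which may be technical.

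Cells make most transcripts of mitotic proteins late in the cell cycle. In resting cells the MuvB core, as part of the DREAM complex, represses these genes through a promoter element called the cell cycle genes homology region (CHR). When cells approach mitosis MuvB instead carries B-MYB, the product of MYBL2, which helps to recruit FOXM1, and the same genes are switched on. Cyclin-dependent kinase 1 with cyclin B then starts mitosis, Aurora and Polo-like kinases and motor proteins build the spindle, and the anaphase-promoting complex (APC/C) ends it by destroying securin and cyclin B.

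Total estimated counts, in units of 1e6, were 33.39 to 34.73 in on-drug, 25.73 to 33.99 in off-drug and 25.7 to 31.79 in parental libraries, and the lowest count of a member in a library was 201. On-drug libraries stood apart in makeup, with TMM scaling factors of 1.113 to 1.124, against 0.917 to 0.95 off drug and 0.937 to 0.972 in parental libraries. The summed level of 7 epithelial markers was 2085 to 2808 TPM (transcripts per 1e6 transcripts, which takes account of transcript length) on drug, 3482 to 3968 TPM off drug and 3444 to 4106 TPM in parental cells, with 6 of the 7 at 1 TPM or more in each state and SFTPB listed at 0. Within that list, CDH1 and NKX2-1 went the other way, with NKX2-1 at a mean of 63.3 TPM on drug, 11.5 TPM off drug and 22.02 TPM in parental cells, and CDH1 at 95.4 TPM on drug, 59.5 TPM off drug and 66.02 TPM in parental cells. Fibroblast markers summed to 76.6 to 97.7 TPM on drug, 5.65 to 7.20 TPM off drug and 7.99 to 10.3 TPM in parental cells. Most of that sum on drug was LUM. COL1A1 averaged 15.7 TPM on drug, 4.38 TPM off drug and 7.48 TPM in parental cells. The fibroblast markers COL1A2, DCN, PDGFRA and PDGFRB were under 1 TPM in each state. Leukocyte markers summed to 7.08 to 7.88 TPM on drug, 63.7 to 73.6 TPM off drug and 38.8 to 42.9 TPM in parental cells, most of it CD68. Another of them, CD79A, averaged 12.7 TPM off drug, 0.14 TPM on drug and 0.80 TPM in parental cells. Endothelial markers summed to 2.94 to 4.19 TPM on drug, 4.33 to 4.75 TPM off drug and 1.53 to 2.39 TPM in parental cells. The part of these markers in the results below was not tested.

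Under drug the mitotic genes moved in both directions, in shares not far from those of all genes. Of the 37, 9 rose in on-drug against off-drug cells (24.3%, against 31.4% of all 17307 genes tested) and 14 fell (37.8%, against 31.2% of all genes). The other 14 did not pass the test. The split depends on the scaling between libraries. With library size alone it was 18 higher (48.6%, against 45% of all genes) and 8 lower (21.6%, against 20.7%), a shift that all genes shared. The median log2 fold change of the 37 was -0.07, with a range of -1.08 to 2.68, and the median over all genes was 0.02. The genes that rose were MYBL2, FOXM1, KIF11, CENPF, ESPL1, KIF20A, BIRC5, CENPA and CDCA8. Those that fell were BUB1, ECT2, PTTG1, KIF2C, CDC20, NEK2, DLGAP5, TOP2A, AURKA, AURKB, UBE2C, ANLN, PLK1 and HMMR. For KIF2C, TOP2A, AURKB, UBE2C, ANLN, PLK1 and HMMR, the on-drug and off-drug libraries overlapped in TPM. In bulk RNA, fewer mitotic cells and less of a transcript in each cell cannot be told apart. The adjusted p-values below are from edgeR's quasi-likelihood test with Benjamini-Hochberg adjustment across all genes tested, and a gene is said to have risen or fallen where this p was under 0.05.

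Both resistant states carried more of these transcripts than parental cells. In off-drug against parental cells 34 of the 37 rose (91.9%, against 28.4% of all genes) and 0 fell, against 26.6% of all genes. 0 members were lower at an unadjusted p under 0.05 as well, and DESeq2 and limma voom also called 0 lower. The median was 0.84 for the members and 0.00 for all genes, and the members ranged from 0.05 to 1.56. In on-drug against parental cells 32 rose (86.5%, against 33.4% of all genes) and 2 fell (5.41%, against 32.9%), with a median of 0.66 and a range of -0.35 to 3.48. The 3 comparisons share libraries in pairs, so their counts are not independent of each other.

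Put side by side, the calls fall into 8 patterns. CDCA8, CENPA, CENPF, KIF11, KIF20A, ESPL1, FOXM1 and MYBL2 were higher off drug than in parental cells and higher again on drug. PLK1, AURKA, AURKB, KIF2C, HMMR, DLGAP5, ANLN, CDC20, UBE2C and TOP2A were lower on drug than off drug but still above parental cells. A further 12 genes, among them CCNB1, CDK1 and TPX2, were above parental cells in both resistant states and did not pass the test between on-drug and off-drug cells. NEK2 and ECT2 were lower on drug than off drug and did not pass the test against parental cells. BUB1 and PTTG1 were lower on drug than in either other state. BIRC5 did not pass off drug against parental cells, NUSAP1 passed in on-drug against parental cells alone, and CCNB2 passed in none of the 3 comparisons.

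**Figure D1:**
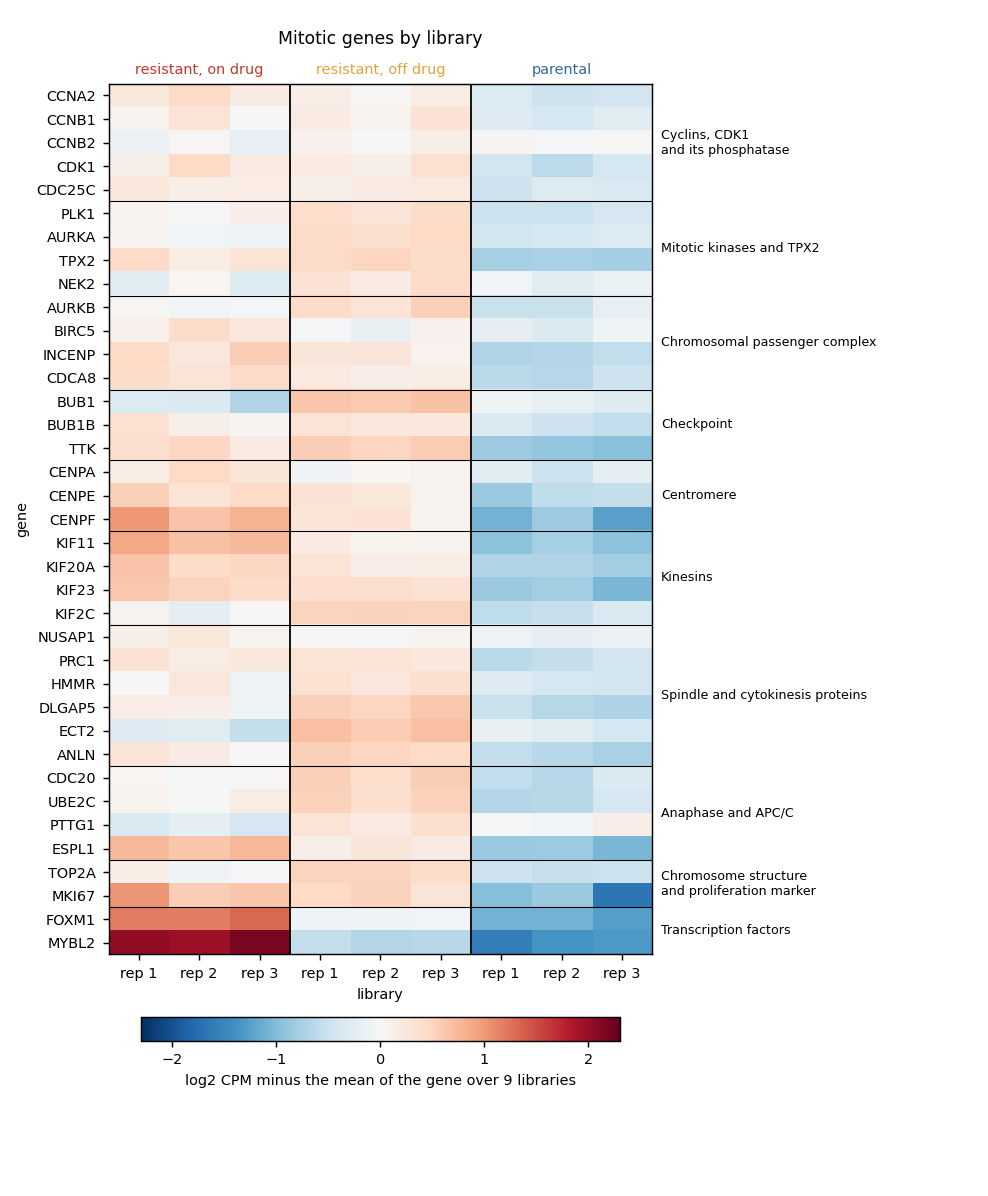
Colour gives, for each of the 37 genes (rows, grouped by role) and each of the 9 libraries (columns, on drug, off drug, parental), the log2 of TMM-scaled counts per 1e6 counts (CPM) minus the gene's mean over the 9 libraries. MYBL2 and FOXM1 stand highest in the 3 on-drug libraries, BUB1 and ECT2 in the 3 off-drug libraries, and most other rows are lowest in the 3 parental libraries.

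The promoter sequences of genes at both ends of the on-drug against off-drug order are shown first, since MuvB complexes are known to reach mitotic genes through them. Of the 37 genes, 31 had an entry among the RefSeq promoters used (GRCh38.p14, from 250 bases before to 50 bases after the annotated start). AURKA, TTK, BIRC5, TPX2, UBE2C and FOXM1 had none and are named only. The windows below run from 120 bases before to 30 bases after the start, 5′ to 3′ on the gene's strand. Capitals mark a CHR (TTTGAA or TTCGAA, or on the other strand TTCAAA) or a CCAAT box (CCAAT, or on the other strand ATTGG), the element bound by NF-Y. KIF11 (chr10:92593010-92593159, plus strand) and ESPL1 (chr12:53268179-53268328, plus strand) rose on drug and have a CHR inside the printed stretch. BUB1 (chr2:110678034-110678183, minus strand) and ECT2 (chr3:172750606-172750755, plus strand) fell most. MYBL2 (chr20:43666994-43667143, plus strand) rose most and was added after its values were seen.
KIF11: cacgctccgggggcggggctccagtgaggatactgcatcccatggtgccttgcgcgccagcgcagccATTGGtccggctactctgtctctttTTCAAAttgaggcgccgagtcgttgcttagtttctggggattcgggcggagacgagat
ESPL1: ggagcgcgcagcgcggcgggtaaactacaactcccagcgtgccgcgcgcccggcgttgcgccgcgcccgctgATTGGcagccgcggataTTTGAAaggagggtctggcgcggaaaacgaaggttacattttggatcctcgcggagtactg
BUB1: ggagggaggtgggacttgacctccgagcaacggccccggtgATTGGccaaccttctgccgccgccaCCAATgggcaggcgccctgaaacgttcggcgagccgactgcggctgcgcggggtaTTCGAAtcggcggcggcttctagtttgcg
ECT2: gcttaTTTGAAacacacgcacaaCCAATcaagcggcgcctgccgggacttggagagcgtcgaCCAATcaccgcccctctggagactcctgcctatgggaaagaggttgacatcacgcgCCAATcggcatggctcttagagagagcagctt
MYBL2: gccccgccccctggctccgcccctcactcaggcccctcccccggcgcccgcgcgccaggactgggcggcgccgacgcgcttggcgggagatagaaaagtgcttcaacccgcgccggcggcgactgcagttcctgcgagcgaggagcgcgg
The KIF11 window holds the CHR on the other strand 28 bases before the start, and ESPL1 holds TTTGAA 31 bases before it. In BUB1 the word TTCGAA begins at base 2 after the start, and in ECT2 a CHR lies 115 bases before the start, with CCAAT boxes that begin 97, 58 and 2 bases before it. Neither word was found in the MYBL2 window, which says only that these letters are not in it.

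Across the 31 members, 22 had a CHR word on either strand (71%), against 5336 of 27305 genes with a promoter in the same table (19.5%). A CCAAT box was found in 26 members (83.9%), against 39.7% of all genes, and both words in 20 members (64.5%), against 7.85%. The CHR was found in 5 of 7 members that rose on drug against off-drug cells, 8 of 12 that fell and 9 of 12 that did not pass. Members that rose and members that fell thus both carried it. Between 40 bases before and 10 bases after the start, a stretch chosen after the positions were seen, 16 members (51.6%) had a CHR, against 3.63% of all genes. KIF2C and CENPE, like MYBL2, had neither word. The E2F words TTTCCCGC and TTTGGCGC, on either strand, were in 2 members (CENPA and NUSAP1, 6.45%), against 2.75% of all genes. Other spellings of an E2F site were not searched, so members without these words, MYBL2 among them, may hold one. The forkhead word GTAAACA was in 1 member (CDK1, 3.23%), against 4.19% of all genes. None of these words contains another, and a match is a description of the sequence, not a bound site.

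**Figure D2:**
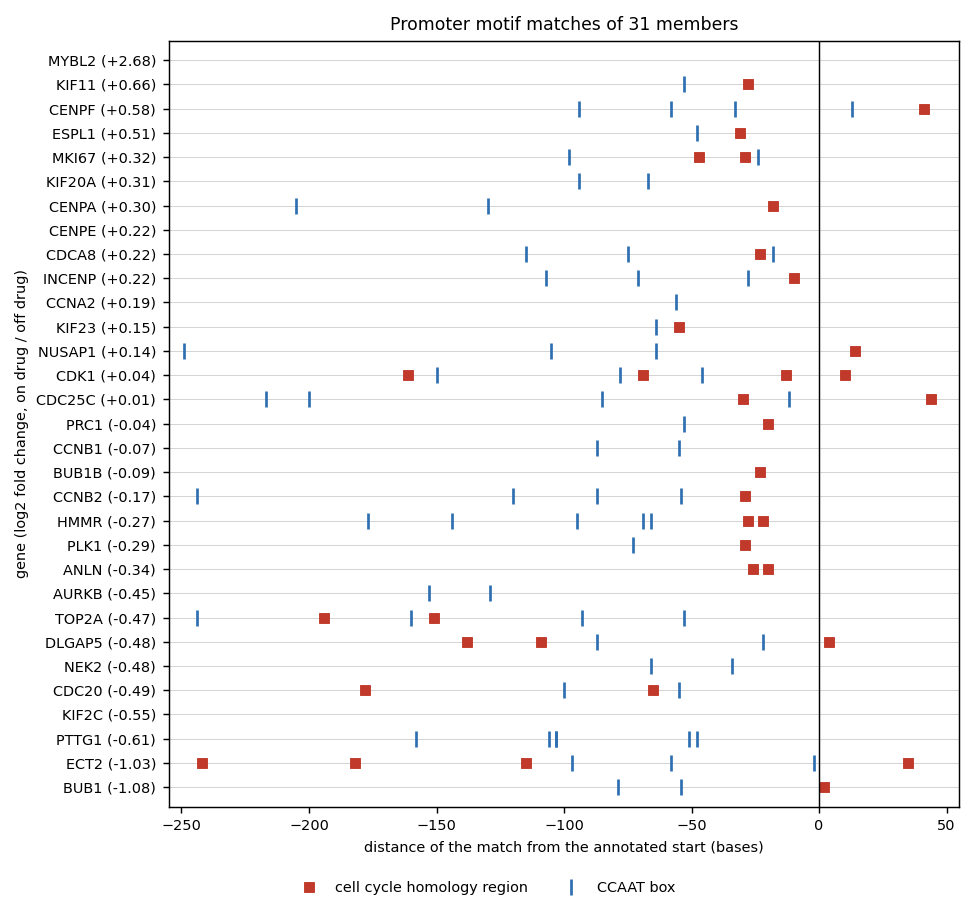
Each row is 1 of the 31 members with a RefSeq promoter, ordered by log2 fold change in on-drug over off-drug cells, and each mark is a CHR or CCAAT match at its distance in bases from the annotated start. Among the genes that fell, ANLN, PLK1 and HMMR have a CHR just before the start and BUB1 and DLGAP5 just after it, while ECT2, CDC20 and TOP2A have theirs farther away.

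The transcription factors rose most. MYBL2 (ENSG00000101057.16, chromosome 20, 43667019 to 43716496, GRCh38), which encodes B-MYB, was measured at 139, 132 and 152 TMM-scaled CPM (counts per 1e6 counts) in on-drug, 23.2, 21.3 and 21.7 CPM in off-drug and 11.3, 13.1 and 13.6 CPM in parental libraries. The 3 states do not overlap, and the on-drug libraries are far above all others. On drug it was 6.4-fold higher than off drug (log2 2.68 ± 0.09 SE, adjusted p = 1.2e-12) and 11.2-fold higher than in parental cells (3.48 ± 0.10, adjusted p = 1.7e-13). Off-drug cells were 1.74-fold above parental cells (0.80 ± 0.10, adjusted p = 3.9e-06).

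FOXM1 (ENSG00000111206.13, chromosome 12, 2857681 to 2877155), a forkhead factor that activates G2 and mitotic genes, had 73.2, 73.1 and 80.5 CPM on drug, 30.2, 30.2 and 30.9 CPM off drug and 15.1, 15.1 and 13.4 CPM in parental libraries. Its states do not overlap either, and the off-drug libraries lie within 1 CPM of each other. The on-drug level was 2.48-fold that off drug (1.31 ± 0.08, adjusted p = 1e-09) and 5.2-fold that of parental cells (2.38 ± 0.09, adjusted p = 1.8e-12). FOXM1 overlaps ITFG2 on the other strand over 781 bases (15.9% of FOXM1's exon bases), and ITFG2 lay at 1.88 to 7.51 TPM. The strand setting of the counting is not given, so reads of that stretch cannot be assigned to either gene. Among other members, CCNA2 overlaps EXOSC9 on the other strand over 254 bases. Likewise CDC25C overlaps FAM53C over 293 bases and KIF20A overlaps BRD8 over 132 bases, and the same limit holds for each. The partner's TPM reached up to 74.3% (EXOSC9), 121% (FAM53C) and 269% (BRD8) of the member's in a library. Some members share exon bases with a gene on the same strand, which no strand setting separates. NUSAP1 (62.2% of its exon bases) and PRC1 (57.6%) each do so with a gene without a symbol, at most 2.04 and 1.05 TPM. CENPA does so with SLC35F6 (6.96%), at 6.1 to 8.44 TPM.

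**Figure D3:**
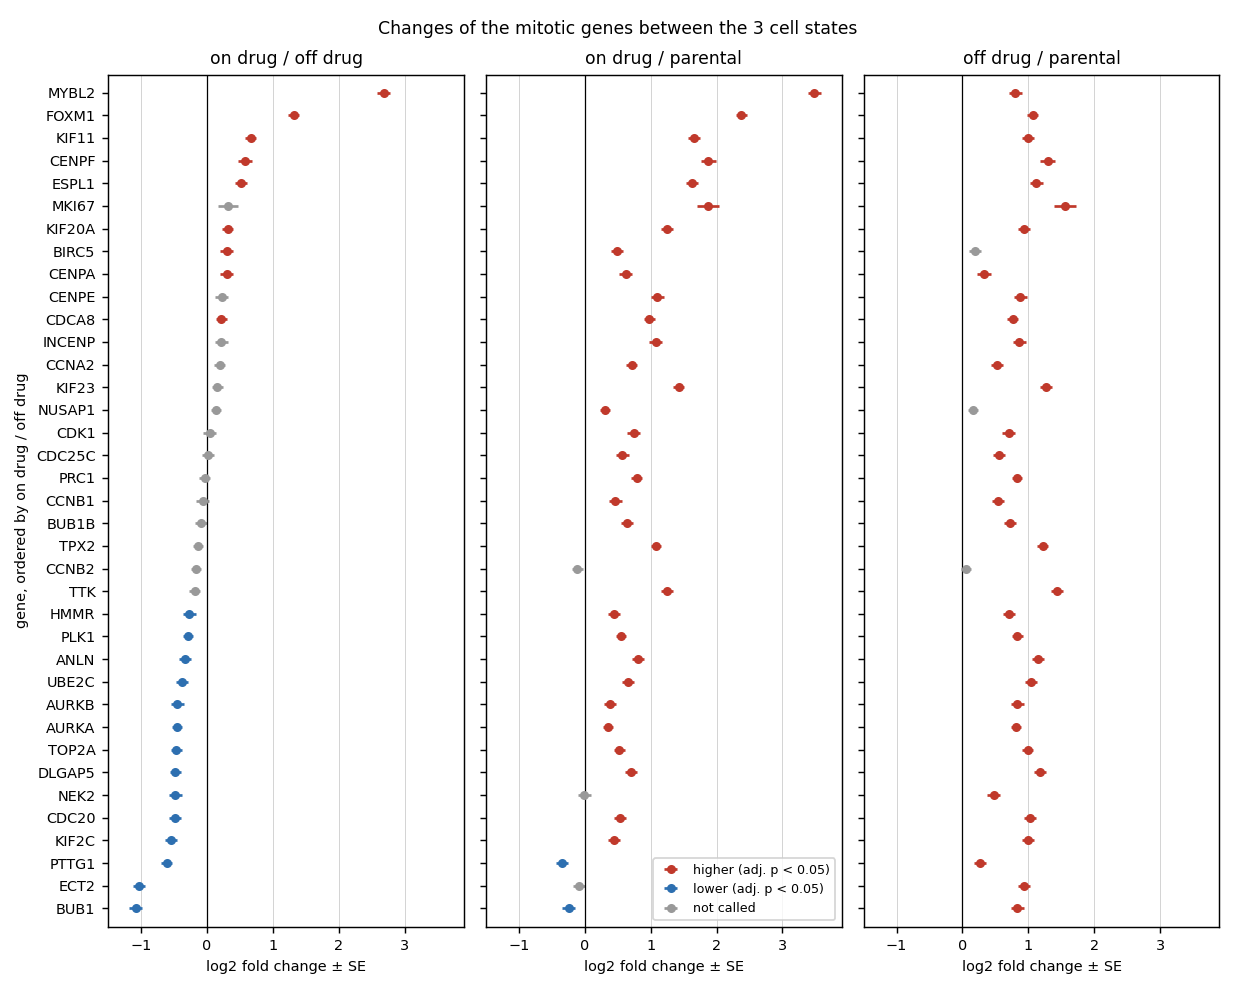
Points give the log2 fold change and bars its SE for the 37 genes in 3 panels (on drug over off drug, on drug over parental, off drug over parental), with all rows ordered by on drug over off drug and colours for the call at an adjusted p under 0.05. In the first panel the genes run from -1.08 (BUB1) to 2.68 (MYBL2) on either side of 0. In the third panel all 37 points lie above 0, and 34 of them passed.

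The genes of mitotic entry (CCNA2, CCNB1, CCNB2, CDK1 and CDC25C) did not pass the test in on-drug against off-drug cells, although 4 of the 5 rose in each resistant state against parental cells. CCNB1, cyclin B1, the partner of CDK1 at mitotic entry, had 265.9, 310.3 and 248.4 CPM on drug, 286, 263.8 and 314.2 CPM off drug and 202.6, 188.4 and 205.8 CPM in parental libraries. On-drug and off-drug libraries overlap (-0.07 ± 0.09, adjusted p = 0.54), and both lie above the parental ones (0.47 ± 0.09 on drug, adjusted p = 0.00037, and 0.53 ± 0.09 off drug, adjusted p = 0.00016). CDK1, the kinase itself, averaged 146 ± 18.8 CPM on drug, 143 ± 10.8 CPM off drug and 87.6 ± 6.43 CPM in parental cells (SD, n = 3 each), and its log2 fold change on drug over off drug was 0.04 ± 0.10 (adjusted p = 0.75). CDC25C, the phosphatase that activates CDK1, had a log2 fold change of 0.01 ± 0.09 on drug over off drug (adjusted p = 0.91) and was 0.57 ± 0.09 above parental cells on drug. CCNA2, cyclin A2, had a log2 fold change of 0.19 ± 0.09 on drug over off drug (adjusted p = 0.061), and its 3 on-drug libraries (125.3 to 147 CPM) lay above its off-drug ones (109.6 to 121.2 CPM).

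CCNB2, cyclin B2, was the member with no call. It had 66.6, 74.5 and 63.5 CPM on drug, 77.9, 72.1 and 79.7 CPM off drug and 76.1, 71.1 and 74.2 CPM in parental libraries. All 3 states overlap in CPM, with log2 fold changes of -0.17 ± 0.08 on drug over off drug (adjusted p = 0.088) and 0.05 ± 0.08 off drug over parental (adjusted p = 0.61). In TPM the on-drug (69.2 to 77.7 TPM) and off-drug libraries (71.0 to 74.8 TPM) overlap each other. Both lie above the parental ones in TPM (61.7 to 68.3 TPM).

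Among the mitotic kinases and TPX2, 3 of 4 fell on drug relative to off drug. AURKA, Aurora A, which matures centrosomes and the spindle poles, had 97.2, 89.5 and 87.6 CPM on drug, 127.2, 120 and 127.9 CPM off drug and 68.4, 70.8 and 74.8 CPM in parental libraries. The on-drug libraries lie between the other states and overlap neither. Their log2 fold change was -0.45 ± 0.08 against off-drug (adjusted p = 8.8e-05) and 0.36 ± 0.08 against parental cells (adjusted p = 0.00068). PLK1, the Polo-like kinase of mitotic entry and cytokinesis, fell by 0.29 ± 0.08 on drug relative to off drug (adjusted p = 0.0042) and averaged 76.6 ± 3.91 CPM on drug, 93.4 ± 4.10 CPM off drug and 52.4 ± 2.39 CPM in parental cells.

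NEK2, a kinase that helps to separate centrosomes, had 59, 71.9 and 56.2 CPM on drug, 87.4, 79.3 and 94.7 CPM off drug and 66.5, 58.6 and 62.9 CPM in parental libraries. Off-drug libraries are above all others, and the on-drug range takes in all 3 parental values. It fell by 0.48 ± 0.10 on drug relative to off drug (adjusted p = 0.00058), and its log2 fold change against parental cells was -0.01 ± 0.10 (adjusted p = 0.95). In the test on TPM values with a pseudocount of 1 that second value was 0.27 instead (adjusted p = 0.035). TPX2, the microtubule protein that activates Aurora A, had a log2 fold change of -0.14 ± 0.08 on drug over off drug (adjusted p = 0.15). It stood 1.08 ± 0.08 above parental cells on drug and 1.22 ± 0.08 off drug.

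The chromosomal passenger complex, which corrects faulty attachments of chromosomes to the spindle, moved in both directions. Its kinase AURKB had 78.4, 73.9 and 75.5 CPM on drug, 103.8, 95.6 and 111.9 CPM off drug and 53.7, 53.7 and 67.4 CPM in parental libraries. The states do not overlap in CPM, but on-drug and off-drug libraries do in TPM. AURKB fell by 0.45 ± 0.10 on drug relative to off drug (adjusted p = 0.00067). BIRC5, which encodes survivin, the subunit that brings the complex to centromeres, had 232.8, 286 and 254 CPM on drug, 210.8, 189.1 and 227.9 CPM off drug and 182.4, 169.1 and 198.6 CPM in parental libraries. In CPM the off-drug and parental libraries overlap, and the on-drug libraries lie above both. In TPM the off-drug libraries (88.4 to 97.2 TPM) lie above the parental ones (74.4 to 78.2 TPM). Off drug over parental, BIRC5 was called higher in 4 of 22 alternative settings, among them the test on log2(TPM + 1) (0.28, adjusted p = 0.0064). BIRC5 rose by 0.30 ± 0.10 on drug relative to off drug (adjusted p = 0.013). CDCA8, borealin, rose by 0.22 ± 0.08 (adjusted p = 0.027) to 50.6 ± 2.36 CPM on drug, against 43.5 ± 1.29 CPM off drug. INCENP, the scaffold, had a change of the same size (0.22 ± 0.10) that did not pass (adjusted p = 0.059). All 4 rose in on-drug against parental cells, by 0.38 ± 0.10 (AURKB) to 1.08 ± 0.10 (INCENP).

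Of the spindle checkpoint kinases BUB1, BUB1B and TTK, BUB1 alone passed on drug against off drug. BUB1 (ENSG00000169679.15, chromosome 2, 110637698 to 110678114), which recruits checkpoint and centromere proteins to kinetochores, had 82.4, 81.7 and 63.7 CPM on drug, 161, 156 and 164 CPM off drug and 96.2, 90.2 and 83.4 CPM in parental libraries. The off-drug libraries are far above the rest. The on-drug libraries lie just under the parental ones in CPM and overlap them in TPM. It fell by 1.08 ± 0.10 on drug relative to off drug (adjusted p = 9.5e-08), the largest fall among the 37. Against parental cells it was 0.84 ± 0.10 higher off drug (adjusted p = 2.8e-06) and 0.25 ± 0.10 lower on drug (log2 -0.25, adjusted p = 0.037). That last call held in 10 of 22 alternative settings, and the direction turned with TPM values, to 0.09 (adjusted p = 0.51 with a pseudocount of 1).

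BUB1B, which encodes BubR1, an inhibitor of the APC/C, had 79.7, 67.9 and 64.9 CPM on drug, 77.3, 74.6 and 74.0 CPM off drug and 49.3, 45.0 and 42.2 CPM in parental libraries. On-drug and off-drug libraries overlap (-0.09 ± 0.09, adjusted p = 0.41) and both exceed the parental ones. TTK, the kinase MPS1 at the top of the checkpoint, averaged 84.2 ± 8.23 CPM on drug, 95.8 ± 3.22 CPM off drug and 35.4 ± 1.47 CPM in parental cells. It stood 1.25 ± 0.09 above parental cells on drug and 1.44 ± 0.09 off drug, and its change on drug over off drug did not pass (-0.19 ± 0.08, adjusted p = 0.064).

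Of the centromere genes, CENPF and CENPA rose on drug relative to off drug and CENPE did not pass. CENPF, a large protein of the outer kinetochore, had 143, 114 and 125 CPM on drug, 88.5, 91.1 and 76.4 CPM off drug and 33.8, 40.1 and 30.3 CPM in parental libraries. None of the states overlap, and the change on drug over off drug was 0.58 ± 0.11 (adjusted p = 0.00026). Its values depend on how transcript length is counted. The estimated count divided by the TPM, which follows the length of the transcripts that were quantified, stood for CENPF at 2.98, 3.30 and 2.47 times the library median on drug, 4.27, 4.83 and 4.32 times off drug and 4.78, 4.85 and 1.72 times in parental libraries. The on-drug length was 0.649 of the off-drug one, a shift that 1.29% of the 12052 genes compared matched or passed. In TPM, CENPF averaged 23.4 on drug, 8.75 off drug and 4.54 in parental cells, and with this length as an offset its change on drug over off drug was 1.21 (adjusted p = 0.0012). For 31 of the 37 members this length differed by less than 0.1 on the log2 scale between on-drug and off-drug cells.

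CENPA, the histone variant that marks centromeres, had 28.9, 35.5 and 31.3 CPM on drug, 24.3, 26.5 and 27.2 CPM off drug and 21.8, 18.2 and 22.1 CPM in parental libraries. The states do not overlap, and it rose by 0.30 ± 0.10 on drug relative to off drug (adjusted p = 0.018). CENPE, a kinetochore kinesin that moves chromosomes to the spindle equator, had a change of 0.22 ± 0.10 on drug over off drug that did not pass (adjusted p = 0.063). It stood 1.10 ± 0.10 above parental cells on drug (adjusted p = 1.1e-07).

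The 4 kinesins moved apart. KIF11 (ENSG00000138160.7, chromosome 10, 92593286 to 92655395), the motor Eg5 that pushes the spindle poles apart, had 66.4, 57.8 and 60.7 CPM on drug, 40.9, 37.9 and 38.1 CPM off drug and 18.8, 21.2 and 18.6 CPM in parental libraries. Each state lies clear of the next. KIF11 rose by 0.66 ± 0.09 on drug relative to off drug (adjusted p = 5e-06), the third largest rise among the 37, and stood 1.66 ± 0.09 above parental cells. KIF20A, which carries the passenger complex to the central spindle, rose by 0.31 ± 0.08 (adjusted p = 0.0046) to 73.4 ± 6.29 CPM on drug, against 59.2 ± 3.63 CPM off drug.

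KIF2C, the motor MCAK that shortens microtubules at centromeres, moved the other way. It had 70.3, 57.5 and 67.6 CPM on drug, 95.5, 96.3 and 94.4 CPM off drug and 44.6, 46.0 and 52.4 CPM in parental libraries. Its on-drug libraries lie between the others without overlap in CPM, but overlap the off-drug ones in TPM. KIF2C fell by 0.55 ± 0.09 on drug relative to off drug (adjusted p = 6.4e-05). KIF23, the motor of the centralspindlin complex, had a change of 0.16 ± 0.09 on drug over off drug (adjusted p = 0.12) and stood 1.42 ± 0.09 above parental cells on drug.

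**Figure D4:**
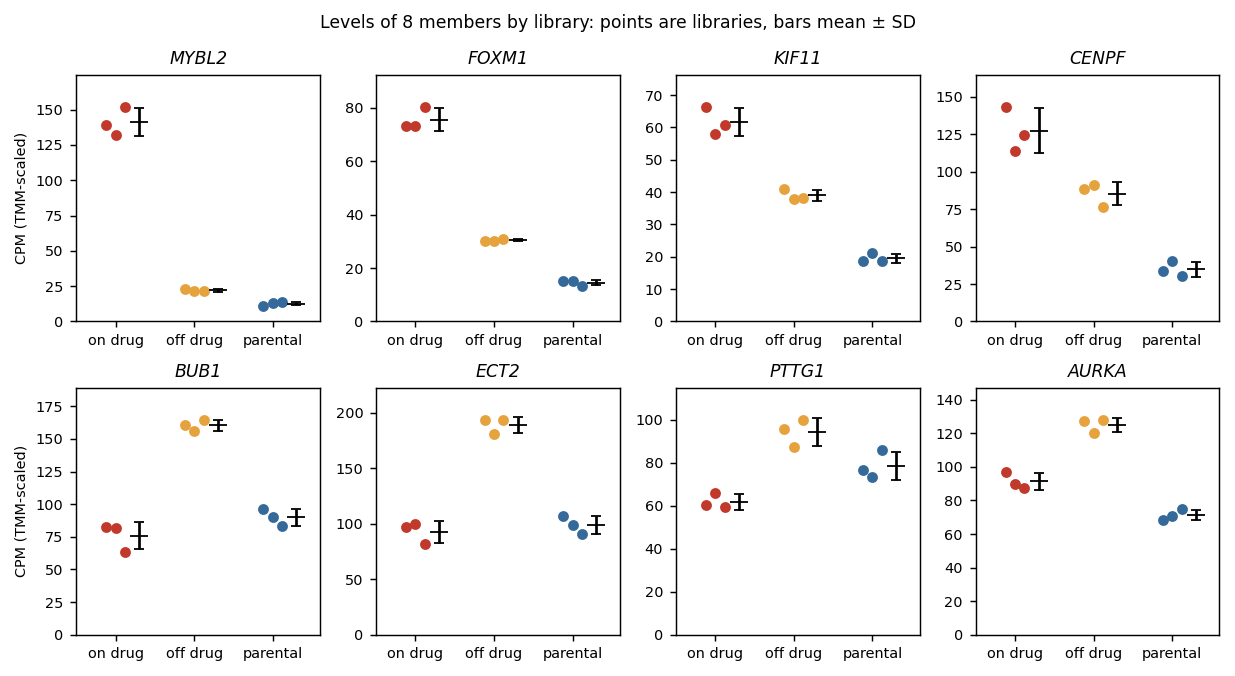
Each of 8 panels shows 1 gene in TMM-scaled CPM, with points for the 3 libraries of on-drug, off-drug and parental cells and bars for mean ± SD. MYBL2 (132 to 152 CPM on drug), FOXM1, KIF11 and CENPF are highest on drug and lowest in parental cells, while BUB1, ECT2, PTTG1 and AURKA are highest in the off-drug libraries.

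Of 6 spindle and cytokinesis proteins, 4 fell on drug relative to off drug. ECT2 (ENSG00000114346.14, chromosome 3, 172750682 to 172821474), the exchange factor that activates RhoA for the cleavage furrow, had 97.5, 99.5 and 81.7 CPM on drug, 193.5, 181 and 193.6 CPM off drug and 107.3, 98.9 and 90.7 CPM in parental libraries. On-drug and parental libraries overlap, and the off-drug ones are well above both. ECT2 fell by 1.03 ± 0.09 on drug relative to off drug (adjusted p = 7.7e-08), while its log2 fold change against parental cells was -0.09 ± 0.09 (adjusted p = 0.39). ANLN, anillin, a scaffold of the contractile ring that works with RhoA, fell by 0.34 ± 0.09 (adjusted p = 0.0035) to 183 ± 19.9 CPM on drug, against 231 ± 6.85 CPM off drug and 104 ± 6.95 CPM in parental cells.

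DLGAP5, the spindle assembly protein HURP, had 138.8, 138.1 and 114.7 CPM on drug, 181.8, 174.2 and 190.2 CPM off drug and 87.3, 78.1 and 76.0 CPM in parental libraries. Its states do not overlap, and it fell by 0.48 ± 0.09 on drug relative to off drug (adjusted p = 0.00022). HMMR, a hyaluronan receptor that also binds the spindle, fell by 0.27 ± 0.09 (adjusted p = 0.019) with an on-drug top value of 89.6 CPM just under the lowest off-drug value of 89.9 CPM. PRC1, which bundles microtubules of the central spindle, had on-drug and off-drug libraries that overlap (-0.04 ± 0.08, adjusted p = 0.69), and scaled to library size alone its change was 0.22 (adjusted p = 0.024). NUSAP1, which crosslinks spindle microtubules, stood 0.30 ± 0.08 above parental cells on drug (adjusted p = 0.0025) and did not pass in the other comparisons. It was called higher there in some of the 22 alternative settings, in 3 on drug over off drug and in 2 off drug over parental.

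In the control of anaphase, the protease rose and its inhibitor fell. ESPL1, separase, the protease that cuts cohesin, had 25.9, 24.0 and 26.5 CPM on drug, 17.1, 18.8 and 17.7 CPM off drug and 8.60, 8.66 and 7.48 CPM in parental libraries. The states are far apart, and it rose by 0.51 ± 0.09 on drug relative to off drug (adjusted p = 0.00014). PTTG1 (ENSG00000164611.13, chromosome 5, 160421822 to 160428744), securin, which holds separase inactive until anaphase, had 60.2, 65.8 and 59.2 CPM on drug, 95.8, 87.5 and 99.9 CPM off drug and 76.4, 73.3 and 85.9 CPM in parental libraries. Here the on-drug libraries are the lowest of the 9 in CPM and the off-drug libraries the highest. In TPM the on-drug and parental libraries overlap. PTTG1 fell by 0.61 ± 0.09 relative to off drug (adjusted p = 1.4e-05) and by 0.35 ± 0.09 relative to parental cells (adjusted p = 0.0022). The call against parental cells held in 18 of 22 alternative settings. Its near-identical copies PTTG2 and PTTG3P received at most 1 count in a library (0.0409% of the PTTG1 count). Reads that fit more than 1 of these genes were thus counted almost wholly as PTTG1. Any such reads that came from the copies would be included there.

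CDC20, the activator of the APC/C that starts the destruction of securin, had 146, 138.6 and 144.5 CPM on drug, 205.2, 185.8 and 210.3 CPM off drug and 94.9, 89.5 and 112 CPM in parental libraries. The on-drug libraries lie in a narrow band between the others, and CDC20 fell by 0.49 ± 0.09 relative to off drug (adjusted p = 0.00018). UBE2C, the ubiquitin-conjugating enzyme that works with the APC/C, fell by 0.39 ± 0.09 (adjusted p = 0.0013) to 121 ± 6.88 CPM on drug, against 158 ± 9.74 CPM off drug and 76.5 ± 8.19 CPM in parental cells.

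TOP2A, the topoisomerase that untangles sister chromatids, had 530.1, 444.8 and 455.4 CPM on drug, 672, 673.5 and 629.4 CPM off drug and 336.3, 326.6 and 331.9 CPM in parental libraries. The 3 states are separate in CPM, but on-drug and off-drug libraries overlap in TPM. TOP2A fell by 0.47 ± 0.08 on drug relative to off drug (adjusted p = 0.00012). MKI67, the proliferation marker Ki-67 that coats mitotic chromosomes, had 104.6, 76.8 and 81.2 CPM on drug, 71.8, 75.3 and 63.7 CPM off drug and 26.5, 28.8 and 16.4 CPM in parental libraries. Its on-drug libraries lie just above the off-drug ones, but the change did not pass (0.32 ± 0.16, adjusted p = 0.088), though it was called higher in 9 of 22 alternative settings. Against parental cells it rose by 1.87 ± 0.17 on drug (adjusted p = 5.9e-08). MKI67 was also the member with the widest spread in on-drug (17.1% coefficient of variation) and parental libraries (27.6%).

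With TMM factors the median of all genes in on-drug over off-drug cells was 0.02, with 9 members higher and 14 lower. Upper-quartile factors moved that median to 0.15 and gave 15 members higher and 11 lower, where 37.9% of all genes were higher and 25.2% lower. Library size alone moved it to 0.27 with the member counts given above. Tests on log2(TPM + 1) moved it to 0.16 and gave 14 higher and 9 lower, where 38.5% of all genes were higher and 21.7% lower. Count scalings shift all genes alike, so the members' median moved with that of all genes. It was 0.07 with upper-quartile factors and 0.19 with library size alone. In all 22 alternative settings, KIF20A, ESPL1, CENPF, KIF11, FOXM1 and MYBL2 stayed higher, and BUB1, ECT2, PTTG1 and AURKA stayed lower. Calls were lost in at least 1 setting for BIRC5, CDCA8 and CENPA among the rises and for the other 10 falls, down to -0.01 for HMMR with library size alone. Calls were gained in at least 1 setting by 12 of the 14 members that did not pass. MKI67 and CCNA2 were called higher in 9 of 22 settings each, INCENP in 8, CENPE in 6 and KIF23 in 5, and TTK was called lower in 3.

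**Figure D5:**
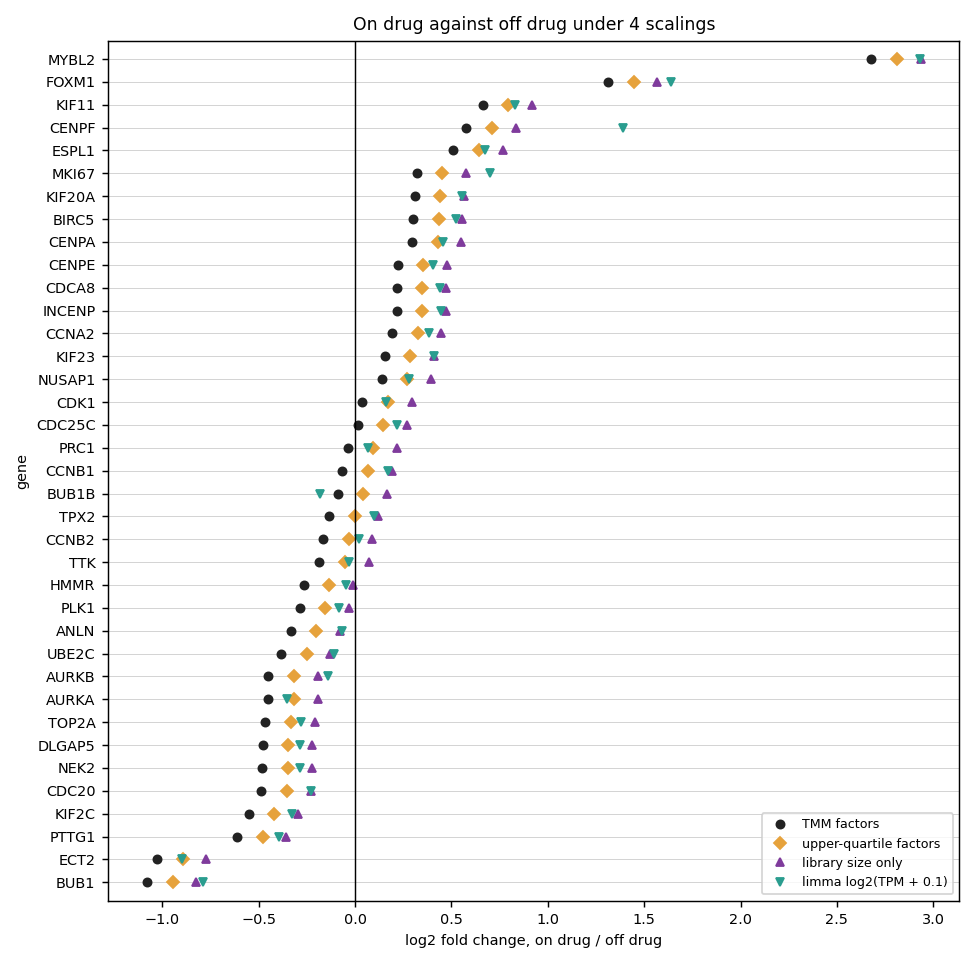
Points give the log2 fold change in on-drug over off-drug cells for the 37 genes under the scalings and tests named in the legend. The count scalings shift the genes together, the TPM test moves CENPF and BUB1B apart from the rest, and genes in the middle of the order cross 0 or lose their call, while MYBL2 and FOXM1 stay above 0 and BUB1 and ECT2 below 0 under each.

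Levels per transcript length, in TPM, can be set against each other between genes. UBE2C was highest on drug (311 TPM) and off drug (334 TPM), and PTTG1 was highest in parental cells (171 TPM). MYBL2 stood at rank 16 of 37 on drug (55.2 TPM), against rank 34 both off drug (7.13 TPM) and in parental cells (3.74 TPM). BUB1 took rank 27 on drug (30.2 TPM), against 18 off drug (51.8 TPM) and 17 in parental cells (28.1 TPM). The 37 together summed to 2697, 2478 and 2419 TPM on drug, 2589, 2463 and 2459 TPM off drug and 1453, 1432 and 1398 TPM in parental libraries. On-drug and off-drug libraries overlap in this sum, and both lie above the parental ones.

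Members that rose on drug were mostly genes of low level. The parental level had a median of 4.54 TPM (range 2.38 to 76.0 TPM) in the 9 genes that rose on drug over off drug, 35.3 TPM (16.3 to 171 TPM) in the 14 that fell and 24.0 TPM (1.68 to 159 TPM) in the 14 that did not pass. Across the 37 genes the parental level in TPM and the log2 fold change on drug over off drug had a Spearman rho of -0.61, and -0.55 without MYBL2 and FOXM1. The relative transcript length, described above for CENPF, also went with this fold change (rho 0.38, and 0.33 without MYBL2 and FOXM1). Its median was 1.39 in the genes that rose and 0.97 in those that fell. Neither relation is given here for all genes. Genes are not independent replicates and share these libraries, so these are descriptions. The on-drug libraries also varied more among themselves, with a median coefficient of variation over the members of 8.84%, against 4.38% off drug and 7.14% in parental cells.

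Other genes of cell division, taken as lists, moved in both directions between on-drug and off-drug cells as well. With TMM factors more of them rose than fell, whereas 9 of the 37 members rose and 14 fell. Of 102 such genes, 47 rose and 21 fell on drug against off drug, with a median of 0.17, where 31.4% of all genes rose and 31.2% fell. With library size alone 70 rose and 10 fell, where 45% of all genes rose and 20.7% fell. Against parental cells 83 rose and 6 fell on drug (median 0.86), where 33.4% of all genes rose and 32.9% fell. Off drug 76 rose and 7 fell against parental cells (median 0.67), where 28.4% of all genes rose and 26.6% fell. Among 10 subunits of MuvB, DREAM and their partners, 6 rose and 2 fell on drug over off drug (median 0.47), with RBL1, the pocket protein p107, at 1.59 and the E2F partner TFDP1 at 1.08. Inner centromere and CENP-A loading genes had 7 of 13 higher and 2 lower (median 0.65), led by CENPU at 1.60. Condensin, which compacts chromosomes, had 6 of 8 higher and 1 lower (median 0.45), with NCAPH2 at 1.29. Kinetochore and checkpoint genes had 8 of 16 higher and 3 lower (median 0.23), from ZWINT at 1.66 to MAD1L1 at -1.12. For MAD1L1 the gap was wider in TPM, with 6.04 to 7.32 TPM on drug against 27 to 32.9 TPM off drug, so its size depends on how transcript length is counted.

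Mitotic entry genes had 5 of 10 higher and 2 lower on drug over off drug (median 0.34), among them PKMYT1, an inhibitory kinase of CDK1, at 1.64 and the phosphatase gene CDC25A at 1.17. The other mitotic kinesins had 2 of 8 lower (median -0.08), KIF14 at -0.69 and KIF18A at -0.24. APC/C genes had 7 of 16 higher and 5 lower (median 0.13), cohesin genes 3 of 10 higher and 2 lower (median -0.02), centriole genes 3 of 6 higher and 1 lower (median 0.31), and cytokinesis genes 2 of 5 higher and 1 lower (median -0.02). In on-drug over off-drug cells 31.4% of all genes were higher and 31.2% lower. The medians of the kinesin, cohesin and cytokinesis lists turned positive with upper-quartile factors (0.05, 0.12 and 0.12), a scaling that moved the median of all genes to 0.15, so they stayed below it. A list of 18 genes of DNA replication and the G1/S step, set beside these for comparison, had 17 higher on drug over off drug, with a median of 1.49. Its median was 2.70 on drug over parental (17 higher, against 33.4% of all genes) and 1.24 off drug over parental (14 higher, against 28.4%).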

How the data were processed

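Per the labels' protocols, mRNA was captured on oligo(dT) beads and the NEBNext Ultra II RNA kit was used for the libraries. The submitters' processing notes name Salmon 0.14.1, FastQC 0.12.1, bcl2fastq 2.17 and the build GRCh38.p13. Not given in the sources used here are the annotation release and the strand setting. The authors deposited estimated counts per gene, which are not scaled for depth, and TPM values, which take account of transcript length and library size. The design assumed plain counts, so the estimated counts were rounded to whole numbers before each count test. Genes were matched to symbols by identifier without version (60089 of 60230).

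One edgeR 4.0.16 quasi-likelihood fit (R 4.3.3) took all 9 libraries, with a mean per state, no covariate, TMM factors and filterByExpr (minimum count 10, minimum total 15), which kept 17307 genes. The common biological coefficient of variation was 0.0946 with 6 residual degrees of freedom. The SE was obtained by dividing the size of the log2 fold change by the root of the F statistic. Alternatives were other scaling factors, other filters, DESeq2 1.42.0, limma 3.58.1 (voom, and log2(TPM) with a pseudocount of 1 or 0.1), fits of the compared states alone, a replicate block and each library left out. An offset for effective length was added after seeing the data. The steps were tested on simulated data.

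All 37 members are named, and other genes by a rule of the largest changes per list. The members and lists were chosen with earlier results of these data known. Library pairs of one state differed by more than sampling noise (lowest chi-square per degree of freedom 5.113), so none was merged. The replicate numbers were checked by correlation, which cannot show whether they pair libraries across states, and they were not used in the main fit. Positions of genes were taken from GENCODE 29 (GRCh38), and promoter sequences from RefSeq on GRCh38.p14.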

Additional observations from a re-analysis of the deposited data

How the results depend on the processing

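In on-drug over off-drug cells the 9 members higher became 15 with upper-quartile factors, 18 with library size alone and 14 with log2(TPM + 1), and the 14 lower became 8 with library size alone, 9 with log2(TPM + 1) or log2(TPM + 0.1), and 4 with log2(TPM + 1) and no filter. The share of all genes called moved too, to 37.9% higher with upper-quartile factors, 45% higher and 20.7% lower with library size alone, 38.5% and 21.7% with log2(TPM + 1), and 19.8% and 9.4% without its filter, against 31.4% and 31.2% with TMM factors. Leaving out 1 library gave 7 to 12 higher and 13 to 16 lower. In on-drug over parental cells the 2 lower became 1 with upper-quartile factors, no filter on counts or a fit of the compared states alone, 0 with library size alone and 0 in the 3 tests on TPM values. Leaving out 1 library gave 1 to 3, with 1 without on-drug replicate 3, off-drug replicate 1, parental replicate 1 or parental replicate 2. The higher members in on-drug over parental cells numbered 31 to 33, and in off-drug over parental cells 32 to 36. Single genes that turned, with a call before or after, were PRC1 in on-drug over off-drug cells (0.22 with library size alone), NEK2 in on-drug over parental cells (0.27 with either pseudocount) and BUB1 in on-drug over parental cells (0.094 with log2(TPM + 1), with or without the filter, and 0.10 with log2(TPM + 0.1)). Genes with a call in neither setting changed sign too. Among them, CCNB1, CCNB2, TPX2, TTK and BUB1B were below 0 with TMM factors in on-drug over off-drug cells. With library size alone they were at 0.19, 0.089, 0.121, 0.07 and 0.168. The cause was not tested. Same-numbered libraries of different states correlated at r = -0.034 to 0.135 in their deviations, against -0.1 to 0.067 for other pairs. The value of 0.135 was for on-drug replicate 3 with parental replicate 3. With 3 libraries per state, these values cannot show whether same-numbered libraries were paired. With a replicate block, 10 members were higher and 14 lower in on-drug over off-drug cells, 32 and 2 in on-drug over parental cells, and 34 and 0 in off-drug over parental cells. Over all alternatives, calls of single members were gained 47 times and lost 44 times in on-drug over off-drug cells, 2 and 15 times in on-drug over parental cells, and 6 and 10 times in off-drug over parental cells. Scaling moved the median of all genes in on-drug over off-drug cells to as much as 0.27, and smaller changes can lose their call or turn with it. Each state had 3 libraries of 1 cell line, which limits the precision of each SE.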
